A study of Rattus norvegicus with 15 samples.

Results

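Trained rats whose libraries carry the label Rnf20 siRNA were compared with naive rats given scrambled siRNA, across all genes of a table of raw read counts from the dorsal CA1 region of the hippocampus. The comparison takes every library of both groups, 10 of the 15 in the series: 5 naive scrambled libraries (replicates 1, 2, 9, 11 and 12) and 5 trained libraries labelled Rnf20 siRNA (replicates 4, 8, 14, 18 and 20), called naive and Rnf20-labelled below. All were from wild-type male Sprague-Dawley rats of 8 to 9 weeks. All had received an siRNA of the Accell type into dorsal CA1, against Rnf20 or with a scrambled sequence. The trained rats went through contextual fear conditioning 5 days after the injection. The remaining 5 libraries were trained with scrambled siRNA (scrambled trained, replicates 5, 6, 10, 15 and 16) and are given beside the results. In their labels they differ from the naive group by training and share its siRNA. Whether the time from injection to dissection was the same is not known here. Training and the siRNA label differ together between the Rnf20-labelled and naive groups. With no naive Rnf20 siRNA group among the samples, their parts in a difference cannot be told apart. The labels describe the material as all brain cell types, give no time between training and dissection, and do not say whether each library is a separate animal. The p-values therefore speak to the spread among these libraries, which may be technical.

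Rnf20 and its partner Rnf40 form the ubiquitin ligase that attaches a single ubiquitin to histone H2B, a mark of transcribed genes that promotes methylation of histone H3 by the Set1 and MLL family of enzymes. Contextual fear conditioning teaches an animal to associate a place with a shock, and dorsal CA1 takes part in encoding such memories. Neuronal activity switches on immediate early genes, many of which encode transcription factors, and stress hormones act through the glucocorticoid receptor on a partly shared set of genes.

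The label was checked first, and Rnf20 mRNA was not lower under it. Rnf20 was at 44.7, 40.3, 41.6, 39.1 and 43.5 CPM (read counts scaled to a common library size by edgeR's TMM method) in naive replicates 1, 2, 9, 11 and 12. It was at 44.6, 42.5, 42.8, 38.3 and 41.9 CPM in Rnf20-labelled replicates 4, 8, 14, 18 and 20. The groups overlapped over nearly their whole range, with means of 41.8 ± 2.28 and 42.0 ± 2.32 CPM (SD, n = 5 each). Fold changes below are log2 and read Rnf20-labelled minus naive: that of Rnf20 was 0.01, with an SE of 0.08, a 95% interval of -0.17 to 0.18 and an edgeR adjusted p of 1.00. Rnf40 was at 42.8 ± 2.65 CPM in naive and 42.5 ± 2.40 CPM in Rnf20-labelled libraries. The group is therefore named by its label, and no difference below accompanies a lower Rnf20 transcript level. RNF20 protein and the histone mark were not analysed here.

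The Rnf20-labelled libraries differed more among themselves than the naive libraries did. Total counts ran from 14249375 to 17046535 in naive, 12537250 to 18458527 in Rnf20-labelled and 15342480 to 20644425 in scrambled trained libraries. Mitochondrial genes took 10.4% to 12.4%, 11.0% to 12.7% and 8.47% to 13.3% of them. The SD of log2 CPM was larger in Rnf20-labelled than in naive libraries for 10330 of 14880 genes (69.4%), with a median of 0.228 against 0.174. Scrambled trained libraries also spread more than naive ones, in 10771 genes (72.39%) and with a median of 0.2435. The larger spread was therefore not particular to the Rnf20 label. On the first principal component of the 10 libraries, which held 34.4% of the variance, Rnf20-labelled replicate 18 lay at 53.2 and replicate 14 at -46.6, while the naive libraries lay between -15.0 and 12.8. Without these 2 libraries the median SD of the other 3 was 0.155. Leaving out replicate 18 turned the sign of 17 of the 43 gene list medians described below, and leaving out replicate 14 that of 7. Leaving out any other library of the 2 groups turned 2 to 9 of them. Most of those medians are small, and values without a library are given beside many of them. For some lists the number of members in which replicate 18 or 14 lay outside the naive range is given. The share over all genes tested was not counted. Those numbers therefore do not show that a list stood out from other genes in that library. Neuronal and CA1 markers were present in both groups: the CA1 markers Wfs1 and Mpped1, named with the striatal marker for this check alone, had means of 381 and 254 CPM in naive and 361 and 251 CPM in Rnf20-labelled libraries. Markers of adjoining tissue were present too, among them the striatal marker Ppp1r1b at 161 and 141 CPM.

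No gene passed the test. Of 14880 genes tested, 0 differed at an adjusted p under 0.05 by edgeR (0%), and the smallest adjusted p was 1.00. At an unadjusted p under 0.05 there were 342 genes (2.3%), of which 180 were higher (1.21%) and 162 lower (1.09%). With no difference between the groups, a share of about 0.05 would be reached on average, so 2.3% is no excess. DESeq2 called 1 gene, Per1, with an adjusted p of 0.00922, and limma-voom called 0. Expression in the 5 libraries of one group lay wholly above that in the other for 74 genes (0.497%), 37 in each direction (0.249% each). With 5 libraries a group some genes separate in this way by chance, so a lack of overlap below is not a call. The fold changes were centred, with 7524 of the 14880 above 0 (50.6%) and a median of 0.00. Counts of list members below are to be read beside these shares of all genes. The lists were written with earlier results of these data known, so a count above such a share is not separate support. The median SE of a log2 fold change was 0.14. The genes below are therefore given as values, in order of p, and none is a called change.

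**Figure D1:**
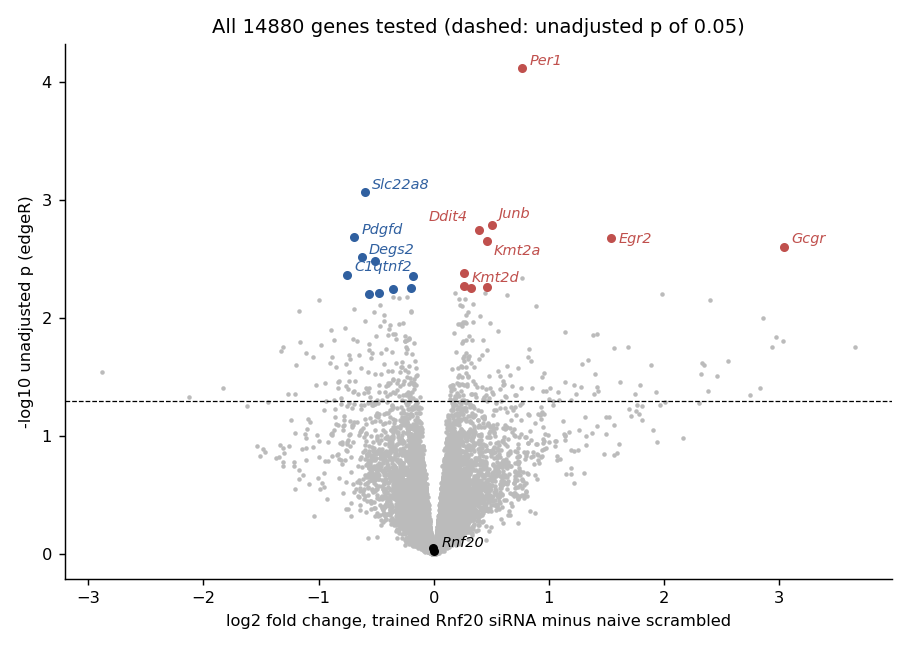
Each point is 1 of the 14880 genes tested, with its log2 fold change (Rnf20-labelled minus naive) on the horizontal axis and the -log10 unadjusted p of edgeR on the vertical axis. Red and blue points are the genes named for the smallest p in each direction and black points are Rnf20 and Rnf40. Per1 stands apart at the top with a fold change of 0.77, and Rnf20 lies at the foot of the plot with 0.01.

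Among the genes with higher means, the smallest p-values belonged to Per1, Junb, Ddit4 and Egr2, which respond quickly to activity or stress, and to Kmt2a. Per1, a repressor in the circadian clock that activity and glucocorticoids induce, was at 30.2, 36.5, 48.8, 28.7 and 28.4 CPM in the naive libraries and 68.1, 54.9, 60.8, 46.8 and 63.3 CPM in the Rnf20-labelled libraries. Only naive replicate 9 reached into the upper group, just above Rnf20-labelled replicate 18. The means were 34.5 ± 8.63 and 58.8 ± 8.21 CPM (SD, n = 5 each), and the fold change was 0.77 with a 95% interval of 0.46 to 1.07 (edgeR adjusted p = 1.00, as for every gene named in this comparison). Without naive replicate 9 Per1 passed the edgeR threshold, at 0.92 and an adjusted p of 0.0184.

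Junb, a subunit of the AP-1 transcription factor, was at 27.4, 31.8, 32.001, 23.2 and 19.0 CPM in naive libraries and 38.2, 38.7, 34.9, 35.7 and 41.6 CPM in Rnf20-labelled libraries. Every Rnf20-labelled library lay above every naive one. Its log2 fold change was 0.50 (SE 0.13). Ddit4, an inhibitor of mTOR signalling, was at 55.6, 58.9, 64.7, 62.1 and 61.6 CPM against 67.1, 99.6, 71.5, 82.2 and 77.0 CPM, again without overlap (0.39, SE 0.10). Egr2, a zinc finger transcription factor, was a low transcript, at 1.65, 2.81, 3.45, 0.628 and 0.855 CPM in naive libraries and 10.0, 3.13, 4.67, 3.38 and 6.37 CPM in Rnf20-labelled libraries. The naive and Rnf20-labelled values overlapped, and the log2 fold change was 1.54 (SE 0.42). These 4 genes had similar values in scrambled trained libraries. There their fold changes over the same naive libraries were 0.68 for Per1, 0.72 for Junb, 0.44 for Ddit4 and 1.76 for Egr2. The genes were picked by a comparison with those naive libraries, which favours a positive sign there in advance. Between the 2 trained groups the 4 genes differed by 0.09, -0.21, -0.05 and -0.21, with edgeR adjusted p-values of 0.926, 0.833, 0.948 and 0.937.

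The other genes of the 10 with smallest p and a higher mean had other functions. Gcgr, the glucagon receptor, had raw counts of 2 to 5 in each naive library and was at 0.332, 2.57, 0.667, 4.55 and 0.991 CPM in Rnf20-labelled libraries, so that its log2 fold change of 3.04 had a 95% interval of 1.25 to 4.83. Dtx2, an E3 ubiquitin ligase of the Deltex family, was at 8.32 ± 0.757 and 10.4 ± 1.31 CPM (0.33, SE 0.10). The naive and Rnf20-labelled ranges of Gcgr and Dtx2 did not overlap, but the margins were narrow. Gcgr had 5 raw counts in naive replicate 11 and 6 in Rnf20-labelled replicate 4. Dtx2 was at 8.98 CPM in naive replicate 12 and 9.06 CPM in Rnf20-labelled replicate 20. Stk11ip, which binds the kinase LKB1, was at 26.2 ± 1.81 and 31.5 ± 2.93 CPM with overlap (0.26, SE 0.08). Ybx1-ps3 is named as a pseudogene, whose reads may belong to its parent gene, and its fold change of 0.47 is uncertain for that reason. Kmt2a and Kmt2d are described with the histone modifiers.

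**Figure D2:**
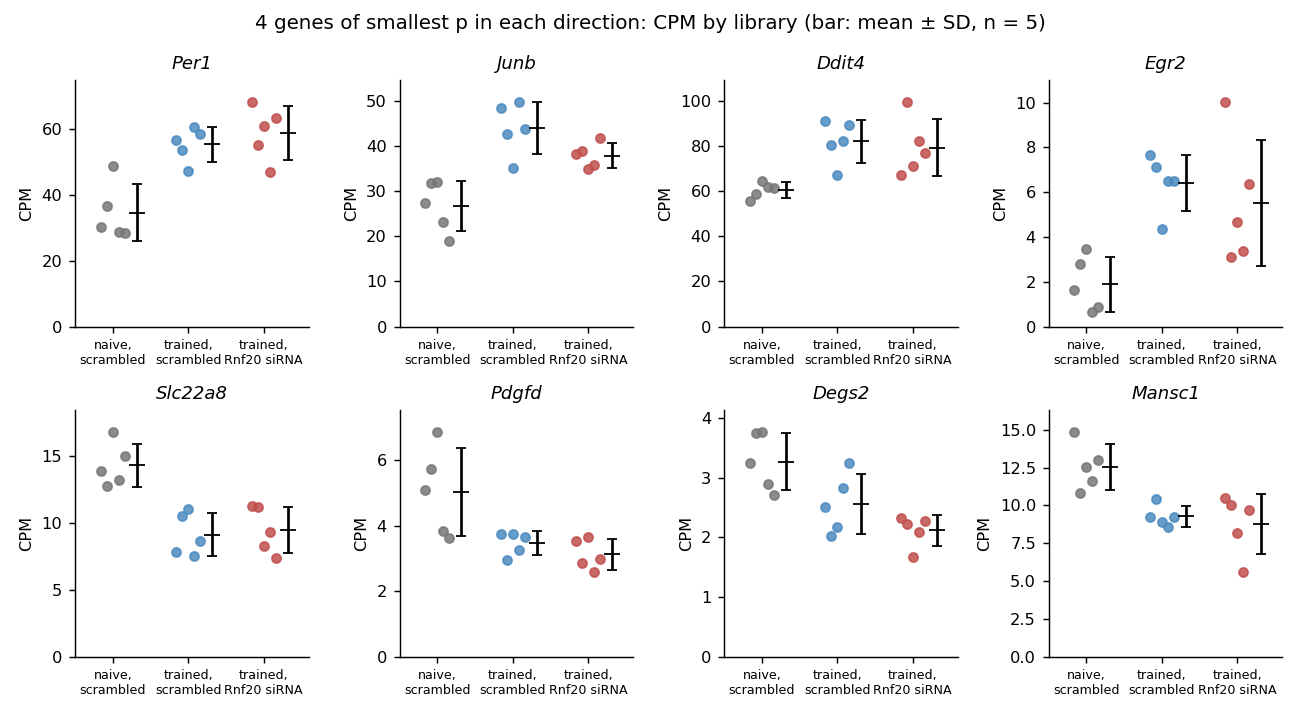
CPM of the 4 genes of smallest p in each direction in every library of the naive (grey), scrambled trained (blue) and Rnf20-labelled (red) groups, with the mean ± SD (n = 5) beside each group. All 5 Rnf20-labelled libraries lie above the naive libraries for Junb and Ddit4 and below them for Slc22a8, Degs2 and Mansc1. The scrambled trained libraries of Per1, at 47.1 to 60.5 CPM, lie among the Rnf20-labelled ones.

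Among the genes with lower means, the smallest p belonged to Slc22a8, an organic anion transporter of the choroid plexus and the blood-brain barrier. It was at 13.9, 12.8, 16.8, 13.2 and 15.0 CPM in naive libraries and 11.2, 11.2, 8.25, 9.34 and 7.36 CPM in Rnf20-labelled libraries, with no overlap. The log2 fold change was -0.59 (SE 0.14), and it was -0.65 in scrambled trained over naive libraries. Pdgfd, a platelet-derived growth factor, was at 5.03 ± 1.34 and 3.12 ± 0.464 CPM with overlap (-0.69, SE 0.19). Degs2, a sphingolipid desaturase and hydroxylase, was at 3.27 ± 0.482 and 2.11 ± 0.265 CPM (-0.62, SE 0.18). Its groups did not overlap, nor did those of Mansc1, a membrane protein, at 12.6 ± 1.51 and 8.79 ± 1.98 CPM (-0.51, SE 0.15). The Mansc1 value was -0.38 without replicate 18 and -0.32 without replicates 14 and 18.

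The other 6 genes of this set had fold changes from -0.75 to -0.18. C1qtnf2, a secreted protein with a C1q domain, was at 2.71, 2.46, 2.55, 2.45 and 2.42 CPM in naive libraries and 1.38, 1.53, 1.75, 1.66 and 1.13 CPM in Rnf20-labelled libraries. Its groups did not overlap (-0.75, SE 0.23). The raw counts were low, at 34 to 42 in naive and 16 to 27 in Rnf20-labelled libraries. Scrambled trained libraries spread more widely, from 0.980 to 2.48 CPM. Dnajb12, a co-chaperone of the endoplasmic reticulum membrane, was at 49.7 ± 1.51 and 43.8 ± 2.31 CPM, and Adgrg2, an adhesion G protein-coupled receptor, at 4.84 ± 0.961 and 3.27 ± 0.505 CPM. Neither overlapped. Pid1, Tubb4a (a beta-tubulin of neurons and oligodendrocytes) and Igsf1 (an immunoglobulin superfamily membrane protein) overlapped, with fold changes of -0.20, -0.35 and -0.48. All 10 genes of this set had a negative fold change in scrambled trained over naive libraries too, from -0.65 for Slc22a8 to -0.11 for Dnajb12. The genes were picked by a comparison with the same naive libraries, which favours a negative sign there in advance. The shared sign is therefore not separate support. Between the 2 trained groups the smallest edgeR adjusted p among the 10 genes was 0.838, for Degs2.

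Immediate early transcription factors had mostly higher means in Rnf20-labelled libraries. Of 26 on the list, all tested, 24 had a fold change above 0, against 50.6% of all genes tested. At an unadjusted p under 0.05, 5 were higher, against 1.21% of all genes. Per1, Junb and Egr2, described above, are among the 5, and Per1 is also on the glucocorticoid and clock lists. The median log2 fold change was 0.29, and it was 0.20 without replicate 18 and 0.24 without replicates 14 and 18. In scrambled trained over the same naive libraries the median was 0.30, with 20 of the 26 above 0. The median shift of the list from the naive mean was 0.35, 0.27, 0.24, 0.04 and 0.29 in Rnf20-labelled replicates 4, 8, 14, 18 and 20, so replicate 18 lay near the naive level. Klf4, a zinc finger factor, was at 3.33 ± 1.18 and 5.18 ± 0.851 CPM with overlap (0.63, SE 0.26). The best-known members spread widely. Fos, the AP-1 subunit that most often stands for recent activity, was at 13.2, 7.96, 15.7, 6.59 and 3.42 CPM in naive libraries and 18.0, 10.8, 10.4, 18.5 and 16.7 CPM in Rnf20-labelled libraries (0.67, SE 0.32). Egr1, a factor tied to synaptic plasticity, was at 94.1 ± 29.9 and 130 ± 56.9 CPM (0.46, SE 0.29, and 0.28 without replicate 20). Npas4, a neuronal factor that rises and decays fast after activity, had a lower mean, at 5.51 ± 2.68 and 3.71 ± 1.65 CPM (-0.58, SE 0.37, and -0.38 without naive replicate 9). Fos, Egr1 and Npas4 were chosen after their values were seen, and the groups of each overlapped.

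The sequences just upstream of Egr2 and Junb are shown because each holds a short motif bound by activity-regulated factors, and they were picked from the genes above for that. The window of Per1, the gene of smallest p, holds neither motif. The windows are the 250 bases before the gene start in RefSeq's table for assembly GRCr8, which is not the assembly of the counts, and run 5′ to 3′ along the strand of the gene. Egr2 lies on the minus strand, with its window at chr20:21054442-21054691, and Junb on the plus strand, with its window at chr19:40080876-40081125. Capitals mark a CArG box, the element that serum response factor binds, and the motif TGACG, the core of the cAMP response element (its complement reads CGTCA).
Egr2: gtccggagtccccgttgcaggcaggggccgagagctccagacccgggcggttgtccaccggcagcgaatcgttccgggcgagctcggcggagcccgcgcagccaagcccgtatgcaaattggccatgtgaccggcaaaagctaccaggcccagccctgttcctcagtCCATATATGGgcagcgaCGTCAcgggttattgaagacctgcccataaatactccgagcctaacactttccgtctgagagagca
Junb: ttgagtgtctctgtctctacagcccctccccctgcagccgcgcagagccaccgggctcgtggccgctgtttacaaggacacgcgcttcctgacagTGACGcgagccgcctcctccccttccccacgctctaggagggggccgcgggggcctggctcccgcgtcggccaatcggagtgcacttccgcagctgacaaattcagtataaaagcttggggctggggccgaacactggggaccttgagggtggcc
In Egr2 the CArG box began 83 bases and the TGACG motif, on the reverse strand, 66 bases before the start, and in Junb TGACG began 155 bases before it. Both strands were searched. TGACG was in 18.2% of 33469 windows of the table. Counted by gene, with a match in any window of the gene, it was in 27.8% of 10896 matched tested genes. It was in 12 of the 18 immediate early factors that matched. A CArG box was in 1.497% of windows, in 1.26% of the matched genes and in 2 of the 18, Egr1 and Egr2. The window of Ddit4 also held neither. A match describes the letters only.

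Effectors that activity induces, such as cytoskeletal and secreted proteins, were closer to the naive level. Of 30 tested, 19 were above 0, with a median of 0.09. In scrambled trained over the same naive libraries 21 were above 0, with a median of 0.11. At an unadjusted p under 0.05, 2 were higher, against 1.21% of all genes. Those were Tiparp, a mono-ADP-ribosyltransferase, at 11.7 ± 1.17 and 14.1 ± 1.11 CPM (0.27, SE 0.09), and Errfi1, an inhibitor of the EGF receptor, at 33.1 ± 2.66 and 39.5 ± 4.27 CPM (0.25, SE 0.09). The groups of Errfi1 did not overlap. Arc, a synaptic protein of the postsynaptic density, was at 111, 96.1, 184, 82.0 and 43.8 CPM in naive libraries and 229, 124, 138, 70.4 and 180 CPM in Rnf20-labelled libraries, and Bdnf, a neurotrophin, at 24.7 ± 5.45 and 24.1 ± 9.38 CPM. Arc and Bdnf, chosen after their values were seen, overlapped widely (0.52, SE 0.35, and -0.04, SE 0.26). The Arc value was 0.31 without replicate 4 and 0.83 without naive replicate 9, and that of Bdnf -0.27 without replicate 14.

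Glucocorticoid target genes had higher means in 18 of 24 tested, with a median of 0.14, against 0.12 in scrambled trained over the same naive libraries. Per1, Ddit4 and Errfi1 were higher at an unadjusted p under 0.05, 3 of the 24 against 1.21% of all genes. Sgk1, a kinase that corticosterone induces, was at 68.8, 75.5, 98.2, 59.6 and 84.1 CPM in naive libraries and 101, 93.0, 83.6, 143 and 86.4 CPM in Rnf20-labelled libraries. The groups overlapped (0.39, SE 0.23), and the value was 0.24 without replicate 18. Fkbp5, a co-chaperone of the glucocorticoid receptor, was at 50.1 ± 6.60 and 48.8 ± 8.96 CPM and was chosen after its values were seen. The clock list, which holds Per1 and Per2, had 11 of 21 above 0 and a median of 0.00 (0.07 without replicate 18). Per2, a second repressor of the clock, was at 32.8, 32.6, 32.4, 29.3 and 37.8 CPM in naive libraries and 39.5, 40.9, 41.2, 35.0 and 51.0 CPM in Rnf20-labelled libraries, with overlap through Rnf20-labelled replicate 18. Its fold change was 0.33 (SE 0.12) here and 0.05 in scrambled trained over naive libraries, and the trained groups differed by 0.28 (edgeR adjusted p = 0.832). Nfil3, a repressor of clock output genes, was at 9.45 ± 1.74 and 12.3 ± 2.02 CPM (0.38, SE 0.20).

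A few enzymes that add or remove histone H3 methylation had higher means. For Kmt2a, Kmt2d and Kdm6b the scrambled trained libraries did not show such amounts. A link to H2B ubiquitination was not tested. Kmt2a, the MLL1 methyltransferase of histone H3 lysine 4, was at 83.4, 82.9, 95.9, 90.4 and 92.6 CPM in naive libraries and 119, 115, 111, 118 and 149 CPM in Rnf20-labelled libraries. Every Rnf20-labelled library lay above every naive one, and replicate 20 above the rest. The log2 fold change was 0.46 (SE 0.13), and 0.39 without replicate 20. It was 0.03 in scrambled trained libraries, which were at 91.2 ± 17.9 CPM. Between the trained groups Kmt2a differed by 0.42 (edgeR adjusted p = 0.832), where 0 of 14880 genes passed by edgeR (0%) and 835 had an unadjusted p under 0.05 (5.61%).

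Kmt2d, the related methyltransferase MLL4 that acts at enhancers, was at 180, 194, 187, 186 and 176 CPM in naive libraries and 209, 214, 191, 243 and 254 CPM in Rnf20-labelled libraries. Only replicate 14 lay within the naive range (0.27, SE 0.08), and the trained groups differed by 0.28. Kdm6b, a demethylase of histone H3 lysine 27, was at 30.025 ± 1.77 and 35.1 ± 3.30 CPM (0.22, SE 0.08), and the trained groups differed by 0.24. Setd1b, of the Set1 methyltransferases, was at 31.7 ± 0.828 and 37.0 ± 3.42 CPM without overlap (0.22, SE 0.11). Over the whole list of H2B ubiquitination and linked methylation, 24 of 38 were above 0, with a median of 0.02. At an unadjusted p under 0.05, 3 were higher, against 1.21% of all genes. The list as a whole thus lay close to the median of all genes, and these 4 enzymes were its members of smallest p.

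Enzymes of histone acetylation and DNA methylation had 18 of 31 above 0 and a median of 0.05. Crebbp, a histone acetyltransferase and coactivator of CREB, was at 39.1 ± 3.03 and 44.4 ± 2.53 CPM with overlap (0.18, SE 0.09). Tet2, which oxidises methylated cytosine, was at 28.6 ± 2.08 and 31.7 ± 3.33 CPM (0.15, SE 0.10), and the trained groups differed by 0.27 (edgeR adjusted p = 0.832). The CREB pathway and memory kinases had 24 of 43 above 0 and a median of 0.02 (0.08 without replicate 18 and -0.03 without replicate 14), with Crebbp and Crtc3 higher at an unadjusted p under 0.05. Crtc3, a CREB coactivator, was at 5.67 ± 0.62 and 7.17 ± 0.972 CPM (0.34, SE 0.15, and 0.21 without replicates 14 and 18). Adcy1, a calcium-stimulated adenylyl cyclase, was at 371 ± 41.3 and 479 ± 100 CPM with overlap (0.37, SE 0.22).

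**Figure D3:**
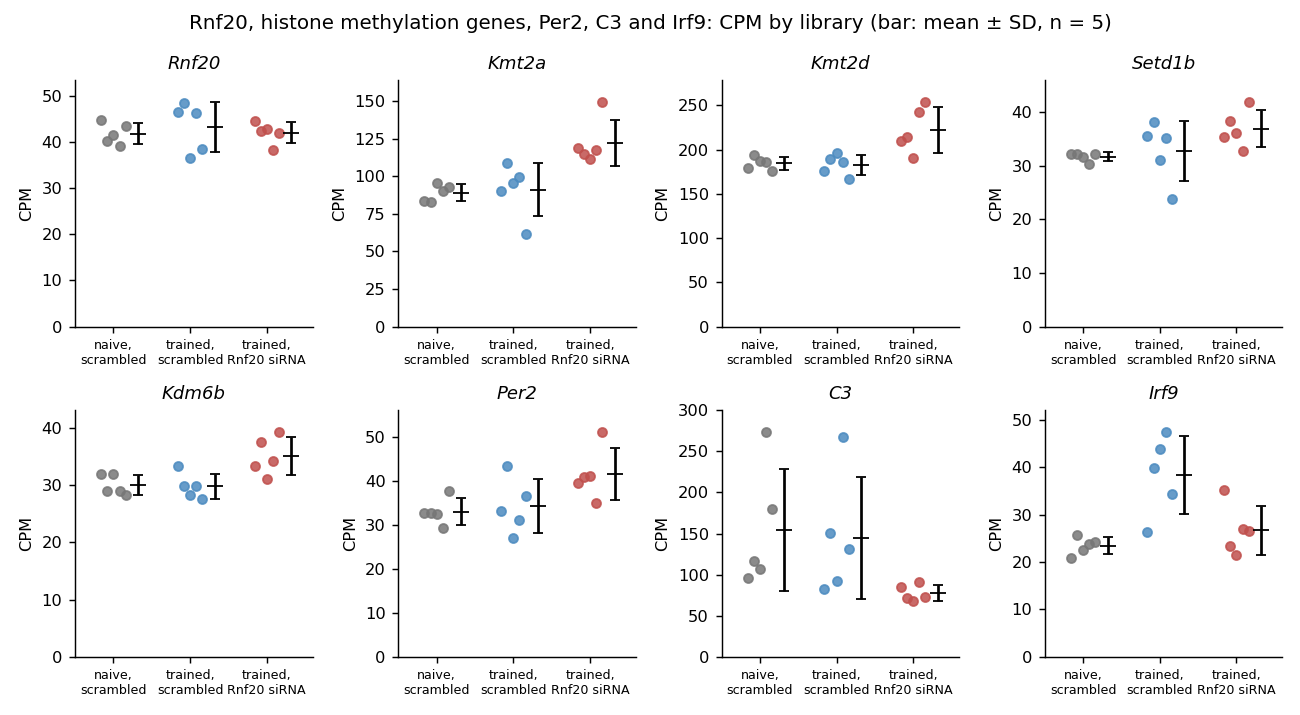
CPM of Rnf20, 4 genes of histone methylation, Per2, C3 and Irf9 in every naive (grey), scrambled trained (blue) and Rnf20-labelled (red) library, with the mean ± SD (n = 5) beside each group. Rnf20 has nearly the same mean in the naive and Rnf20-labelled groups, 41.8 and 42.0 CPM. Kmt2a has means of 89.0, 91.2 and 122 CPM in the order plotted, and C3 is lowest and least spread in the Rnf20-labelled group.

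The complement, interferon and antigen presentation lists had small medians, and single libraries moved each. C3, the central complement component and a marker of reactive astrocytes, was at 96.1, 116, 106, 273 and 180 CPM in naive libraries and 85.3, 71.2, 67.4, 90.8 and 73.2 CPM in Rnf20-labelled libraries. All Rnf20-labelled libraries lay below all naive ones, and the naive values were spread by replicates 11 and 12. The log2 fold change was -0.99 (SE 0.32), against -0.09 in scrambled trained libraries. The trained groups differed by -0.90 (edgeR adjusted p = 0.832). Of the other 18 complement genes, 11 were above 0 and the median was 0.09. With C3 the list had a median of 0.06, which ran from -0.14 without replicate 18 to 0.27 without replicate 14 or without naive replicate 11. Cfd, the protease factor D, was at 1.20 ± 1.01 and 2.72 ± 2.70 CPM with overlap, and its fold change of 1.18 was 0.47 without replicate 18 and 1.85 without naive replicate 11.

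Interferon-stimulated genes had 30 of 40 above 0 and a median of 0.16, with 0 at an unadjusted p under 0.05, and the median was 0.96 in scrambled trained over the same naive libraries. The 0.16 rested on replicate 4, being -0.04 without it, and was 0.30 without naive replicate 9. Irf9, a subunit of the factor that interferon activates, was at 20.9, 25.8, 22.5, 23.8 and 24.2 CPM in naive libraries and 35.1, 23.4, 21.5, 26.9 and 26.5 CPM in Rnf20-labelled libraries. The groups overlapped (0.19, SE 0.15, and 0.07 without replicate 4). In scrambled trained libraries Irf9 was at 38.3 ± 8.29 CPM, and the trained groups differed by -0.52 (edgeR adjusted p = 0.832). Antigen presentation genes had 16 of 24 below 0, with a median of -0.10 and 0 at an unadjusted p under 0.05. Replicate 14 lay below all naive libraries in 21 of the 24. The median was -0.03 without replicate 14 or without replicate 20 and -0.24 without replicate 18. Cd74, the invariant chain of class II molecules, was at 80.0 ± 32.1 and 48.3 ± 19.4 CPM (-0.73, SE 0.38), and RT1-Da, a class II chain, at 23.6 ± 8.81 and 13.6 ± 7.84 CPM (-0.79, SE 0.42). Both overlapped, and replicate 14 was lowest in each, with 16.8 and 4.42 CPM.

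Injury-responsive phagocyte genes had higher means through replicate 18. Of 27 tested, 25 were above 0 and the median log2 fold change was 0.45. At an unadjusted p under 0.05, 2 were higher, against 1.21% of all genes. The median was -0.03 without replicate 18, 0.71 without replicate 14 and 0.15 without both, and it was 1.28 in scrambled trained over the same naive libraries. From replicate 4 to 20 in number order the Rnf20-labelled libraries lay at -0.86, 0.77, -1.40, 1.88 and 0.17 from the naive mean. Replicate 18 was above all naive libraries in 26 of 27 genes and replicate 14 below all of them in 24 of 27. The summed level of the list was 4066 to 4735 CPM in naive and 3928 to 9021 CPM in Rnf20-labelled libraries. In bulk tissue, fewer cells of a type and less RNA per cell cannot be told apart.

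Spp1, the secreted protein osteopontin, was at 56.6, 59.9, 26.8, 38.5 and 39.6 CPM in naive libraries and 9.08, 278, 6.00, 895 and 115 CPM in Rnf20-labelled libraries. The Rnf20-labelled values thus lay on both sides of the naive range. Its fold change was 2.56 (SE 1.01), and 1.22 without replicate 18. Hmox1, which degrades heme, was at 39.9, 46.1, 56.1, 62.3 and 24.6 CPM and at 8.25, 341, 14.3, 750 and 81.1 CPM, with the same libraries high and low (2.38, SE 1.07, and 1.29 without replicate 18). Gpnmb, a glycoprotein of lipid-laden phagocytes, and Lgals3, a lectin of activated microglia, reached 574 and 157 CPM in replicate 18 and 23.2 and 4.75 CPM in replicate 14. Without replicate 18 their fold changes of 1.499 and 1.53 became 0.76 and 0.58. Homeostatic microglia had 8 of 19 above 0 and a median of 0.00, which was -0.19 without replicate 18 and 0.10 without replicate 4. P2ry12, a purine receptor of resting microglia, was at 29.3 ± 9.42 and 25.8 ± 5.39 CPM. Tyrobp, a microglial signalling adaptor, was at 40.5 ± 9.21 and 53.0 ± 41.9 CPM, and its 0.39 was -0.16 without replicate 18.

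Reactive astrocyte, cell division and leukocyte genes followed the same libraries. Reactive astrocyte genes were above 0 in 23 of 25 with a median of 0.31, which was -0.07 without replicate 18 and 0.08 without replicates 14 and 18, against 1.14 in scrambled trained libraries. Gfap, the astrocyte intermediate filament, was at 3220 ± 542 and 3609 ± 1507 CPM (0.16, SE 0.24, and -0.07 without replicate 18), and was chosen after its values were seen. Timp1, an inhibitor of metalloproteinases, was at 4.21, 18.5, 3.25, 41.4 and 14.8 CPM in Rnf20-labelled libraries against 4.13 to 8.85 CPM in naive ones. Its fold change of 1.40 became 0.71 without replicate 18. Hspb1, a small heat shock protein, was at 8.36, 31.3, 9.66, 111 and 20.9 CPM against 8.20 to 19.0 CPM, and its 1.42 became 0.38 without replicate 18. Sphk1, a sphingosine kinase, was at 0.637 ± 0.334 and 1.56 ± 0.930 CPM (1.29, SE 0.51).

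Cell division genes were above 0 in 41 of 43 with a median of 0.33, against 1.27 in scrambled trained libraries, and -0.08 without replicate 18. None had an unadjusted p under 0.05. Replicate 18 exceeded all naive libraries in 40 of the 43. Plk1, a mitotic kinase, was at 1.98, 2.23, 2.00, 1.69 and 2.07 CPM in naive libraries and 1.88, 3.48, 1.83, 5.04 and 2.90 CPM in Rnf20-labelled libraries, and Melk, another kinase of dividing cells, at 0.974 ± 0.171 and 1.86 ± 1.31 CPM. Their fold changes of 0.60 and 0.94 were 0.34 and 0.45 without replicate 18. DNA replication genes had 23 of 36 above 0 and a median of 0.08, which was -0.09 without replicate 18 and 0.40 in scrambled trained libraries. Replicate 18 exceeded all naive libraries in 26 of the 36. Among them Rrm2, a subunit of ribonucleotide reductase, was at 3.11 ± 1.12 and 4.80 ± 4.02 CPM, and Cdc6, which loads the replicative helicase, at 0.504 ± 0.297 and 1.16 ± 0.962 CPM. The Rrm2 value of 0.64 was 0.03 without replicate 18, and the Cdc6 value of 1.19 was 0.55. Leukocyte and border macrophage genes had 11 of 15 above 0 and a median of 0.32 (-0.05 without replicate 18, and 0.97 in scrambled trained libraries). S100a9, a neutrophil protein, reached 8.13 CPM in replicate 8 against at most 1.23 CPM in the other Rnf20-labelled libraries, and its 2.32 became 0.25 without it.

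Blood cell transcripts had higher means in 6 of 7 tested, against 50.6% of all genes, with a median of 1.09. At an unadjusted p under 0.05, 4 were higher, against 1.21% of all genes. Hba-a2, an alpha globin, was at 49.8, 32.2, 43.6, 50.01 and 31.998 CPM in naive libraries and 59.4, 165, 48.2, 172 and 36.7 CPM in Rnf20-labelled libraries. Replicates 8 and 18 were high and the others in or near the naive range. Hbb, the beta globin, was at 68.3 ± 16.3 and 136 ± 82.9 CPM, and Alas2, the first enzyme of heme synthesis in red cells, at 1.66 ± 0.483 and 3.53 ± 2.14 CPM. The median without replicate 8 was 0.78, and it was 2.08 in scrambled trained over the same naive libraries. The globins come from near-identical copies, between which reads can be split. The summed level of the list was 246 to 358 CPM in naive and 275 to 845 CPM in Rnf20-labelled libraries, and its part in the values of phagocyte, leukocyte and Hmox1 transcripts was not tested.

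**Figure D4:**
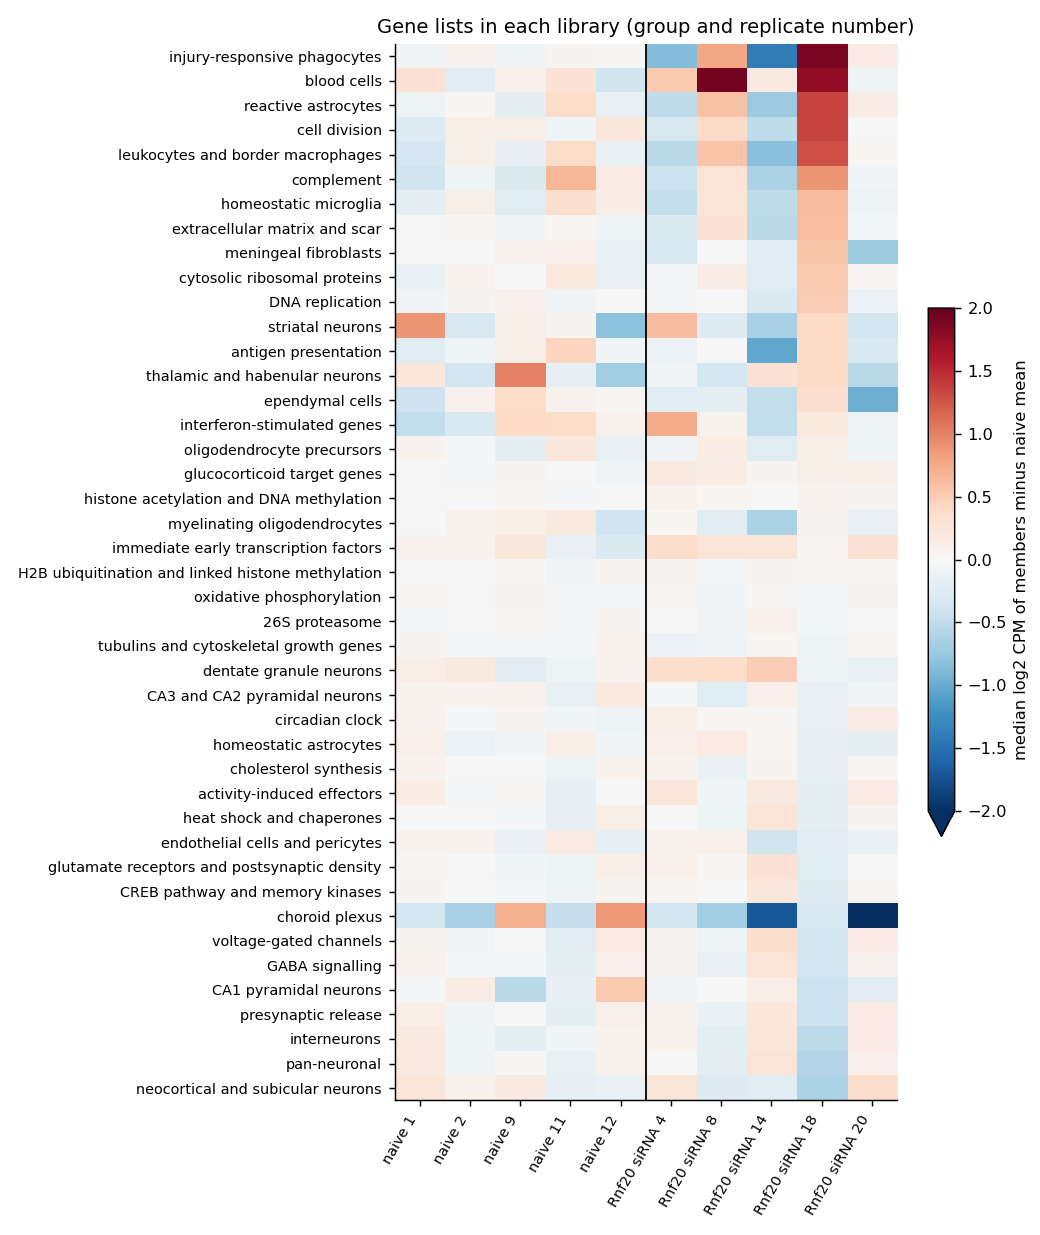
Each cell gives the median over a list's tested genes of log2 CPM minus the naive mean, for 5 naive and 5 Rnf20-labelled libraries, with red above and blue below the naive mean and colours that saturate at 2. Rnf20-labelled replicate 18 holds the darkest red for phagocytes (1.88) and replicate 14 the opposite sign (-1.40), while choroid plexus is lowest in replicate 20.

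Choroid plexus markers had lower means in 21 of 22 tested, with a median of -1.11, against -0.78 in scrambled trained libraries. None had an unadjusted p under 0.05. Ttr, the thyroxine carrier that this tissue secretes, was at 1568, 1290, 3903, 1621 and 4016 CPM in naive libraries and 1697, 1308, 731, 1586 and 73.7 CPM in Rnf20-labelled libraries. Naive replicates 9 and 12 were high, Rnf20-labelled replicates 14 and 20 were low, and the rest overlapped (-1.20, SE 1.07). Ttr was chosen after its values were seen. The median of the list was -0.83 without replicate 20. Enpp2, a lysophospholipase also called autotaxin, was at 638 ± 250 and 334 ± 116 CPM (-0.93, SE 0.44), and Kcne2, a potassium channel subunit, at 23.2 ± 12.0 and 10.6 ± 5.83 CPM (-1.12, SE 0.63). The summed level was 2178 to 6202 CPM in naive and 345 to 2659 CPM in Rnf20-labelled libraries, and its part in the lower level of Slc22a8 was not tested.

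Tissue next to the choroid plexus gave smaller values in the same direction. Ependymal markers had 11 of 15 below 0 and a median of -0.21, which was -0.03 without replicate 20 and -0.48 without replicate 18. Ak7, an adenylate kinase of motile cilia, was at 12.4 ± 2.52 and 8.69 ± 2.40 CPM (-0.51, SE 0.21). Meningeal fibroblast markers had 10 of 13 below 0 and a median of -0.14, which was -0.31 without replicate 18 and -0.06 without naive replicate 1. Igf2, a growth factor of the leptomeninges and choroid plexus, was at 157 ± 59.0 and 81.3 ± 45.8 CPM, with 13.3 CPM in replicate 20. Lama2, a laminin chain of basement membranes, was at 17.0, 15.2, 31.5, 19.3 and 33.1 CPM in naive libraries and 15.5, 14.0, 11.2, 13.6 and 7.86 CPM in Rnf20-labelled libraries (-0.89, SE 0.32). The extracellular matrix list that holds Lama2, Spp1 and Timp1 had 25 of 37 above 0 and a median of 0.12, or -0.02 without replicate 18 and 0.22 without replicate 14.

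Lists of neuronal markers had medians from -0.13 to 0.25, and replicates 18 and 14 lay on opposite sides of the naive mean for the pan-neuronal list. Its 14 genes, 10 of them below 0, had a median of -0.06, which was 0.04 without replicate 18 and -0.16 without replicate 14. The list was shifted by -0.59 from the naive mean in replicate 18, which lay below all naive libraries in 12 of the 14, and by 0.25 in replicate 14. Thy1, a surface glycoprotein of projection neurons, was at 717 ± 61.1 and 671 ± 142 CPM, and its -0.10 was 0.00 without replicate 18. CA1 markers had 10 of 11 below 0 with a median of -0.08, which was 0.04 without replicate 18 and -0.20 without replicate 14. Man1a1, a mannosidase on that list, was at 46.8 ± 13.4 and 37.1 ± 5.01 CPM (-0.34, and -0.17 without naive replicate 12). CA3 and CA2 markers had 12 of 14 below 0 and a median of -0.10 (-0.19 without replicate 14 and -0.04 without naive replicate 12). Spock1, a proteoglycan of that list, was at 115 ± 16.0 and 99.7 ± 21.3 CPM (-0.20, and -0.11 without replicate 18). Dentate granule markers had 10 of 12 above 0 and a median of 0.25, similar in size to the 0.29 of the immediate early factors. It was 0.18 without replicate 14, which lay above all naive libraries in 9 of the 12. In scrambled trained over the same naive libraries the dentate median was 0.20. Prox1, the transcription factor that defines granule cells, was at 56.9, 79.3, 43.1, 53.8 and 61.0 CPM in naive libraries and 83.6, 89.1, 107, 64.4 and 46.6 CPM in Rnf20-labelled libraries, with overlap (0.41, SE 0.25, and 0.27 without replicate 14).

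Pitpnm2, also of the dentate list, was at 280 ± 22.0 and 326 ± 33.5 CPM (0.22, SE 0.11). Interneuron markers had 15 of 21 below 0 and a median of -0.07 (0.04 without replicate 18), with the peptide gene Sst at 57.5 ± 10.3 and 51.5 ± 14.7 CPM (-0.16, and -0.04 without replicate 18) and the transcription factor Lhx6 at 2.06 ± 0.458 and 2.54 ± 0.581 CPM. Neurons of adjoining regions varied by library: striatal markers had a median of -0.09, which ran from -0.32 without replicate 4 to 0.16 without naive replicate 1. Penk, the enkephalin precursor, was at 39.6 ± 21.9 and 33.5 ± 17.3 CPM, and its -0.24 likewise ran from -0.57 to 0.12. Neocortical and subicular markers were at -0.09 (0.05 without replicate 18 and -0.20 without replicate 4), with the corepressor Tle4 at 85.5 ± 2.79 and 77.2 ± 16.4 CPM (-0.15, and -0.07 without replicate 18). Thalamic and habenular markers were at -0.13 (0.27 without naive replicate 9), with the Wnt effector Tcf7l2 at 17.4 ± 8.92 and 14.2 ± 5.34 CPM (-0.29, and 0.04 without naive replicate 9). None of these neuronal lists had a member at an unadjusted p under 0.05.

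Synaptic gene lists had medians near 0 over the 5 libraries, and leaving out replicate 18 or 14 moved them in opposite directions. Presynaptic release genes had 16 of 37 above 0 and a median of -0.03 (0.08 without replicate 18 and -0.08 without replicate 14). Glutamate receptor and postsynaptic genes were at 0.03, voltage-gated channels at -0.01 and GABA signalling at -0.02. These 3 were 0.11, 0.10 and 0.06 without replicate 18 and -0.03, -0.06 and -0.09 without replicate 14. Replicate 18 lay below all naive libraries in 27 of the 37 presynaptic genes. Bsn, the active zone scaffold Bassoon, was at 516, 479, 531, 447 and 542 CPM in naive libraries and 594, 510, 684, 435 and 597 CPM in Rnf20-labelled libraries (0.17, SE 0.15, and 0.09 without replicate 14). Rims2, another active zone protein, was at 86.6 ± 11.8 and 94.8 ± 16.6 CPM, and it differed by 0.41 between the trained groups (edgeR adjusted p = 0.832). Cacna1i, a T-type calcium channel, was at 112 ± 6.34 and 126 ± 22.6 CPM. Kcnh5, a potassium channel, reached 16.4 CPM in replicate 20 against 2.92 to 5.98 CPM in the other Rnf20-labelled libraries, and its 0.45 was -0.14 without replicate 20.

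Grin2d, an NMDA receptor subunit, was at 9.00 ± 0.737 and 7.83 ± 0.304 CPM and did not overlap (-0.20, SE 0.12). Grik1, a kainate receptor subunit, was at 10.6 ± 0.817 and 8.29 ± 1.97 CPM with overlap (-0.35, SE 0.19, and -0.22 without replicate 18). Among tubulins and cytoskeletal growth genes, 10 of 28 were above 0 and the median was -0.03. Tubb2b, a beta-tubulin of immature neurons, was at 151, 137, 135, 147 and 153 CPM in naive libraries and 142, 195, 176, 179 and 162 CPM in Rnf20-labelled libraries. The groups overlapped through replicate 4 (0.24, SE 0.08), and the value was 0.50 in scrambled trained libraries.

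**Figure D5:**
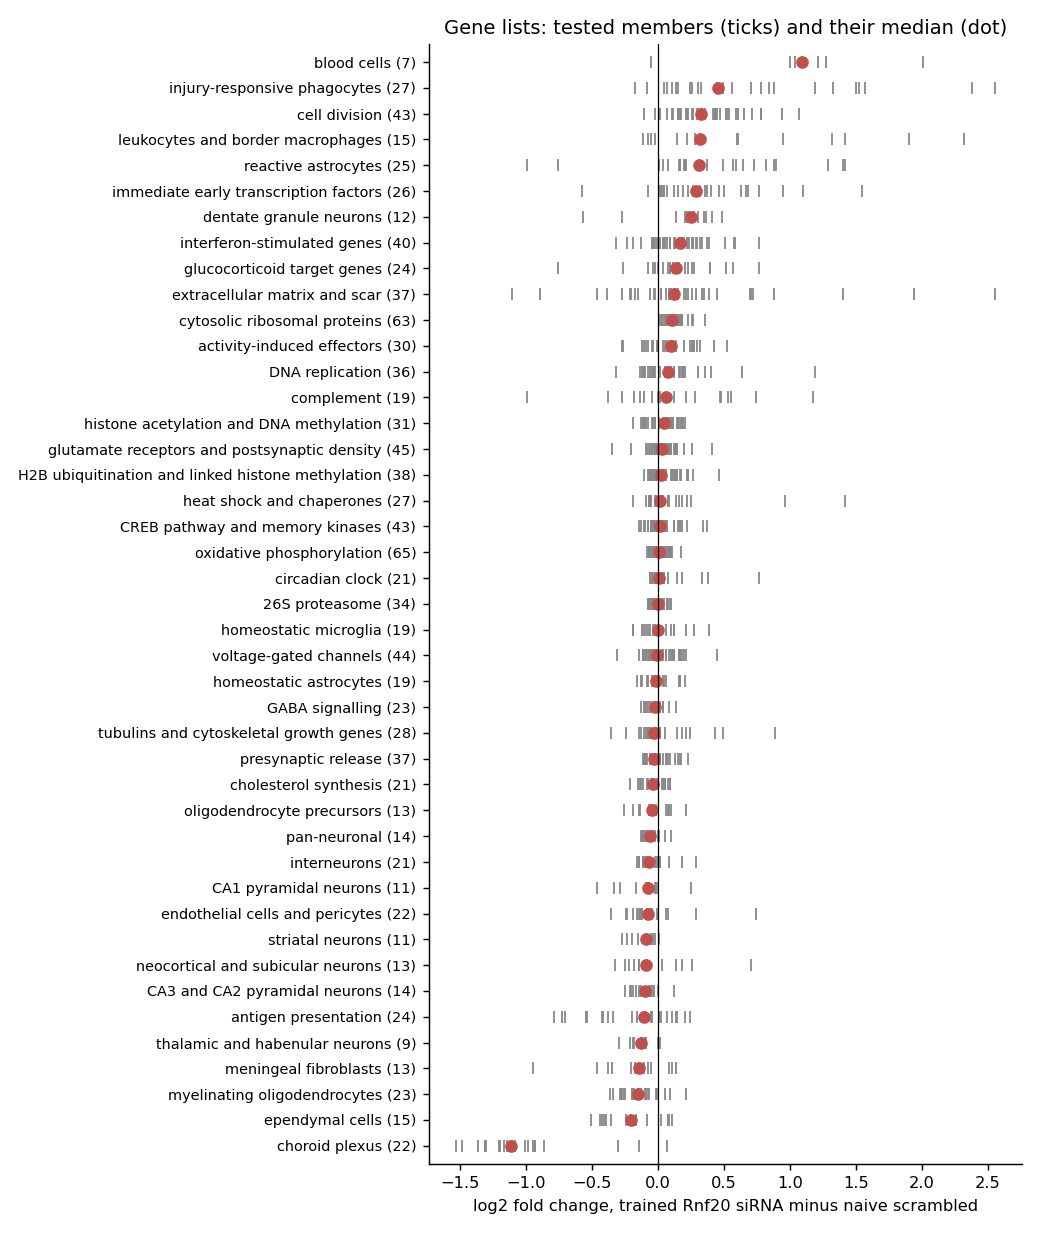
Each row is a gene list with the number of members tested, each tick a member's log2 fold change (Rnf20-labelled minus naive) and each dot the median of the list. Of the 43 medians, 22 lie above 0 and 21 below, from -1.11 for choroid plexus to 1.09 for blood cells, and most pathway lists lie close to 0.

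Markers of glia that were not reactive and of vessels had medians from -0.15 to -0.01. Homeostatic astrocyte markers had a median of -0.01 (0.04 without replicate 18 and 0.07 without replicate 20), with Glul, glutamine synthetase, at 1779 ± 76.8 and 1999.6 ± 285 CPM. Myelinating oligodendrocyte markers had 20 of 23 below 0 and a median of -0.15, which was -0.07 without replicate 14. The list was shifted by -0.64 from the naive mean in replicate 14, which lay below all naive libraries in 22 of the 23. Opalin, a myelin paranode protein, was at 324 ± 55.5 and 252 ± 42.3 CPM (-0.36, SE 0.17), Ermn, a late myelin cytoskeletal protein, at 191 ± 25.0 and 159 ± 28.6 CPM, and Mbp, myelin basic protein, at 10840 ± 2452 and 10711 ± 2634 CPM, the last chosen after its values were seen. Oligodendrocyte precursor markers were at -0.05 (0.01 without replicate 14 and 0.07 without naive replicate 11), with the receptor Pdgfra at 92.5 ± 7.64 and 80.9 ± 11.6 CPM. Endothelial and pericyte markers had 18 of 22 below 0 and a median of -0.08 (-0.01 without replicate 14 and -0.16 without replicate 8), with the VEGF receptor Kdr at 15.9 ± 1.15 and 13.4 ± 2.34 CPM and the cadherin Cdh5 at 11.5 ± 0.946 and 9.74 ± 1.44 CPM. All of these genes overlapped between the groups.

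Housekeeping complexes were level, apart from the ribosome. All 63 cytosolic ribosomal protein genes tested had a fold change above 0, each small, from 0.02 to 0.35, with a median of 0.11. The median was -0.01 without replicate 18, which exceeded all naive libraries in 60 of the 63, and 0.18 without replicate 14. In scrambled trained over the same naive libraries the median was 0.19, with 62 of the 63 above 0. Rps9, a protein of the small subunit, was the 1 member at an unadjusted p under 0.05, at 21.6 ± 3.31 and 27.7 ± 3.98 CPM (0.35, SE 0.15, and 0.22 without replicates 14 and 18). Reads of ribosomal genes can be split with their many pseudogenes. Proteasome subunits had 17 of 34 above 0 and a median of 0.00, against 0.13 in scrambled trained libraries. Psmb4, a core subunit, was at 124 ± 2.89 and 132 ± 4.48 CPM without overlap (0.09, SE 0.06).

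Oxidative phosphorylation genes had 38 of 65 above 0 and a median of 0.01, with Cox7b of complex IV at 85.3 ± 11.0 and 96.3 ± 13.5 CPM. Cholesterol synthesis genes were at -0.04, with the transcription factor Srebf1 at 100.2 ± 8.88 and 86.4 ± 10.0 CPM (-0.21, SE 0.10). Heat shock genes and chaperones had 17 of 27 above 0 and a median of 0.02 (-0.06 without replicate 14 and 0.07 without replicate 18). At an unadjusted p under 0.05, 3 were higher, against 1.21% of all genes. Dnajb1, a co-chaperone of Hsp70, was at 47.0, 49.5, 53.9, 40.9 and 51.5 CPM in naive libraries and 59.7, 59.7, 62.4, 50.4 and 55.9 CPM in Rnf20-labelled libraries. Only replicate 18 lay within the naive range (0.25, SE 0.09). Hspe1, a mitochondrial co-chaperonin, was at 57.0 ± 2.97 and 64.5 ± 6.56 CPM (0.18, SE 0.08, and 0.12 without replicate 18), and Hspb1 is given above.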

How the data were processed

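RNA-seq of dorsal CA1 gave deposited raw counts of reads per gene, per the file headers. The authors used Trim Galore, FastQC, featureCounts 2.0.1, the assembly Rnor_6.0 and DESeq2, per the submitters' processing notes. For the aligner, annotation release and strand setting, the record is: not given in the sources used here. A normalised table, also deposited, was not used. In R 4.3.3, all 15 libraries were fitted with edgeR 4.0.16 (TMM scaling, filterByExpr, robust quasi-likelihood F test, 12 residual degrees of freedom, Benjamini-Hochberg over 14880 of 22314 genes). The script was tested on simulated data. Named genes were Rnf20, Rnf40, the 10 of smallest p in each direction with a mean of at least 1 CPM, and up to 4 members of smallest p per list; genes picked with their values in view are marked so. The comparison, the 43 lists and the rule were chosen with earlier results of these data known. Comparisons of both trained groups with naive share the naive libraries. Alternatives used DESeq2 1.42.0, limma 3.58.1 and sva 3.50.0. Total counts bound precision, and SDs cover the spread between libraries.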

Additional observations from a re-analysis of the deposited data

Results flagged for a closer look

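In 286 sets of 5 values (100 genes that the report names and the 43 lists, in each of the 2 groups), 13 had a highest or lowest library whose gap to its nearest neighbour exceeded Dixon's critical share of the range, 0.71. That is 4.545%, and chance gives about 1 in 20. Of them, 8 were in Rnf20-labelled and 5 in naive libraries.

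Replicate 18 of the Rnf20-labelled group stood high for Hspb1 (111 CPM, next 31.3), Hspe1 (75.7 CPM, next 63.0), Psmb4 (139 CPM, next 131) and Cdc6 (2.83 CPM, next 0.904). Replicate 20 stood high for Kmt2a (149 CPM, next 119) and Kcnh5 (16.4 CPM, next 5.98). Replicate 8 stood high for the neutrophil gene S100a9 (8.13 CPM, next 1.23). The chaperone list was highest in replicate 14, with a mean log2 CPM of 6.76 against 6.63 in the next library.

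Among naive libraries, replicate 11 stood high for Gfap (4167 CPM, next 3084), Cfd (3.01 CPM, next 0.849) and the mean log2 CPM of reactive astrocyte genes (3.39, next 3.01), and low for cholesterol synthesis genes (6.09, next 6.19). Replicate 12 stood low for Klf4 (1.28 CPM, next 3.51).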

How the results depend on the processing

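No paired analysis was possible because the 2 groups share no replicate number. No gene passed under limma-voom with or without quality weights, median-ratio or upper-quartile scaling, another filter, fitting only the 2 groups, 1 surrogate variable, or without replicates 14 and 18. DESeq2 called 1 higher gene, Per1. Leaving out each library in turn gave 0 to 1 higher calls (1 without naive replicate 9) and 0 to 0 lower calls. At an unadjusted p under 0.05, the 180 higher and 162 lower genes became 289 and 316 with quality weights. They became 280 and 273 with no filter, and 320 and 305 with 1 surrogate variable. Both directions together were 2.3% of 14880 genes in the main fit and 2.52% of 21915 genes with no filter. The share was 4.07% with quality weights and 4.2% with 1 surrogate variable. Leaving out 1 library gave 126 to 299 higher genes (299 without Rnf20-labelled replicate 14) and 123 to 202 lower ones. Of the 184 named genes, 159 kept the sign of their fold change in every fit that gave them a value. Most were picked by small p in these same libraries, which favours a stable sign in advance. The share over all genes was not counted, so the 159 are not separate support. The fits were 10 other alternatives and 10 leave-one-out fits. Gcgr, Cenpa and S100a9, counted among the 159, had a value in only 19 of them. List medians were recomputed under 4 of those alternatives (both other scalings, 1 surrogate variable, without replicates 14 and 18) and the 10 leave-one-out fits, and 13 of the 43 kept their sign throughout. The cause of these differences was not tested. With 5 libraries a group, a median SE of 0.14 limits what could be called, more so for transcripts of few counts.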
